A study of Triticum aestivum with 18 samples.

Results

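The wheat probe sets BJ293768 (Ta.5904.2.S1_at) and BJ299578 (Ta.5904.1.S1_at), named here by the GenBank accession in their annotation and both annotated as transketolase, were followed over embryo and endosperm of germinating seeds. They are 2 of the 6 probe sets that the study's functional annotation files under transketolase of the Calvin cycle, out of 61179 wheat probe sets on the array. The 2 were selected on their measured signals, which were much higher under abscisic acid (ABA), a hormone of seed dormancy and stress, in both tissues. Their ABA values are therefore given as a description, without a test. The other 4 transketolase probe sets, BJ272562, CA617323, CA684949 and CA724299, served as the comparison and were tested throughout.

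Seeds of 1 elite Chinese bread wheat (Triticum aestivum) cultivar germinated in the dark with 100 mg/L ABA (ABA_embryo, ABA_endosperm), with H2O2 given as 100 μmol (H2O2_embryo, H2O2_endosperm) or in pure water (CK_embryo, CK_endosperm). Embryo and endosperm were dissected by hand. The paper's results give harvest after 16 h of imbibition with the radicle emerging, and its methods give harvest when radicles just broke through. Whether all groups shared both the time and the stage is therefore not settled. A treatment effect and a difference in germination stage cannot be told apart here. All groups share the cultivar, and each had 3 biological replicates from independently treated material. Total RNA was hybridised to 18 Affymetrix Wheat Genome Arrays, and the values are linear Microarray Suite 5.0 (MAS5) signals in arbitrary units.

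Transketolase is a thiamine diphosphate enzyme that moves carbon units between sugar phosphates. In plant plastids it serves the Calvin cycle, where it helps to regenerate the acceptor of carbon dioxide, and the pentose phosphate pathway, where its reactions are reversible and connect sugar phosphates with the precursors of nucleotides and aromatic compounds. In a seed germinating in the dark there is no carbon fixation by photosynthesis, so the annotation "Calvin cycle" names the enzyme class and not a flux. The annotation matched BJ293768 and BJ299578 to the Arabidopsis transketolase AT2G45290, and the other 4 to the Arabidopsis transketolase AT3G60750. For BJ299578 the match is described only as weak similarity to a putative transketolase. BJ293768 and BJ299578 come from 1 cluster of expressed sequences on the array, so they may report the same or nearly identical transcripts and were not read as independent genes. Copies of a gene on the 3 related genomes of bread wheat cannot be told apart by these probe sets.

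H2O2_embryo replicate 1 stood apart from the other arrays. Its median signal was 138, against 59.0 to 81.0 on the other 17, and 6.79% of its probe sets lay below 10, against 17.5% to 20.8%. Because 1 estimate of the spread is shared by all groups, each call that this array decides is given also without it. For the tissue labels, the agglutinin M25537, a lectin of the wheat germ, was higher in embryo than in endosperm under each treatment. The gliadin or glutenin probe sets BJ296454 and CD868513 were higher in endosperm on every array, at 83.1 or more, against 52.6 or less on the embryo arrays. The other such probe set, M11075, overlapped through 1 H2O2_embryo array with 852.

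BJ299578 had signals of 3916, 4101 and 4180 on the ABA_embryo arrays, against 88.5, 67.3 and 84.2 on the CK_embryo arrays. All ABA_embryo values lay far above all CK_embryo values. The fitted difference was 5.68 ± 0.24 on the log2 scale (limma, SE), a 51.2-fold higher signal. In endosperm the same probe set had 3359, 3626 and 3609 under ABA, against 698, 760 and 666 in CK. The ABA_endosperm arrays again lay above all CK_endosperm arrays, by 2.32 ± 0.24 on the log2 scale or 4.99-fold. The group means under ABA were close, 4066 ± 135 in embryo and 3531 ± 150 in endosperm (SD, n = 3 each), whereas the CK means were 80.0 ± 11.2 in embryo and 708 ± 47.7 in endosperm. The larger fold in embryo thus came with the lower CK level there.

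BJ293768 had 1357, 1524 and 1223 on the ABA_embryo arrays, against 30.5, 13.0 and 12.8 on the CK_embryo arrays. The fitted difference was 6.31 ± 0.57 on the log2 scale, or 79.3-fold, and the groups did not overlap. The CK_embryo signals lay close to the floor of 10 to which lower signals were raised, so the size of this fold depends on the floor. With a floor of 110 in place of 10, the fold was 12.4. In endosperm the probe set had 1573, 1259 and 1231 under ABA, against 156, 172 and 24.1 in CK. This was 3.96 ± 0.57 on the log2 scale, or 15.6-fold, and CK_endosperm replicate 3 was the low array of its group. The mean signals under ABA were 1368 ± 151 in embryo and 1354 ± 190 in endosperm (SD, n = 3 each), so the ABA groups overlapped.

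**Figure D1:**
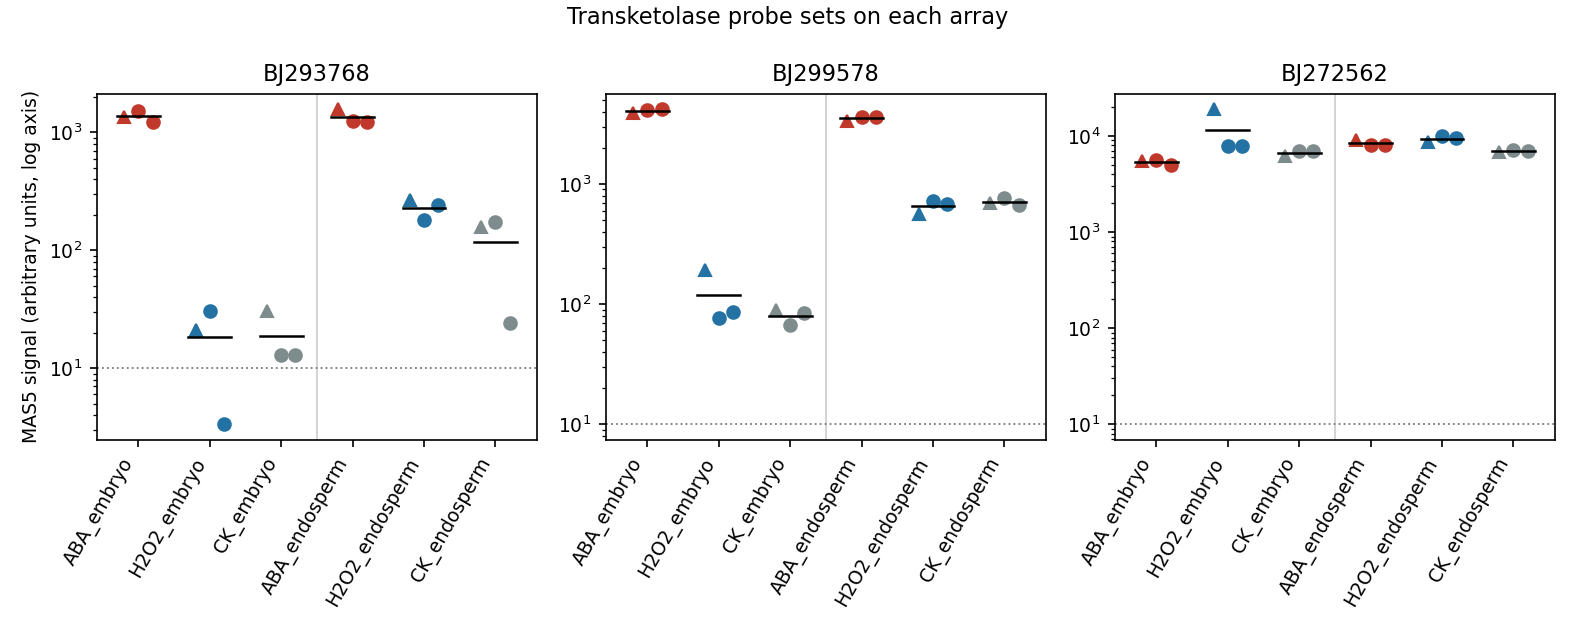
MAS5 signal (log axis) of BJ293768, BJ299578 and BJ272562 on each of the 18 arrays. Triangles mark replicate 1, circles replicates 2 and 3, black lines the group means (n = 3 each) and the dotted line the floor of 10. The ABA arrays of BJ293768 (1223 to 1573) and BJ299578 (3359 to 4180), which were chosen on their ABA signals, lie above all other arrays. BJ272562 lies between 4967 and 19007 on all 18.

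Among the 57992 probe sets tested, ordered by their log2 difference under ABA in embryo, BJ293768 stood at place 6 and BJ299578 at place 18. In endosperm they stood at places 13 and 211. For reference, 2.66% of all probe sets passed the test as higher under ABA in embryo and 3.26% in endosperm. Since these contrasts chose the 2 probe sets, nothing is read from their places. The log2 ABA effect in embryo minus that in endosperm was 3.36 ± 0.34 for BJ299578 and 2.35 ± 0.81 for BJ293768 (SE), again a description. For BJ293768 its size moved with the low CK signals. It was 0.40 with a floor of 110, which lies above every CK_embryo signal of this probe set, and 3.27 without CK_endosperm replicate 3. For BJ299578 it was 2.89 with that floor.

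Over the 6 groups, BJ299578 was highest in ABA_embryo, then ABA_endosperm, CK_endosperm, H2O2_endosperm, H2O2_embryo and CK_embryo. The ABA groups did not overlap with each other, at 3916 to 4180 in embryo and 3359 to 3626 in endosperm. H2O2_endosperm and CK_endosperm overlapped, and so did H2O2_embryo and CK_embryo. BJ293768 ran in the order ABA_embryo, ABA_endosperm, H2O2_endosperm, CK_endosperm, CK_embryo and H2O2_embryo. Neighbours that overlapped were the pair of ABA groups, CK_endosperm with CK_embryo, and CK_embryo with H2O2_embryo.

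The agglutinin M25537, used as the embryo marker, was itself much higher under ABA in both tissues. Its signals were 16275 to 19087 in ABA_embryo, against 1485 to 1686 in CK_embryo, and 4162 to 4273 in ABA_endosperm, against 273 to 413 in CK_endosperm. The agglutinin was lower in ABA_endosperm than in ABA_embryo, with no overlap, as was BJ299578, while the ABA groups of BJ293768 overlapped. The storage protein markers of endosperm were also higher in treated endosperm. BJ296454 had a median of 378 in ABA_endosperm and 361 in H2O2_endosperm, against 150 in CK_endosperm. CD868513 had 655 and 363, against 268, and M11075 had 501 and 387, against 187, in the same order of groups. The part of these markers' tissues in the endosperm values was not tested. In such bulk samples fewer cells of a type and less RNA per cell cannot be told apart.

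The H2O2 arrays did not enter the choice of BJ293768 and BJ299578, and neither probe set passed the test under H2O2. BJ299578 had 194, 76.2 and 85.4 on the H2O2_embryo arrays, against 88.5, 67.3 and 84.2 in CK_embryo. Only replicate 1, the array that stood apart, lay above the CK range. The log2 difference was 0.44 ± 0.24 (SE, 1.36-fold, 95% confidence interval 0.960 to 1.93, limma adjusted p = 0.413). Without that array the fold was 1.02. In endosperm BJ299578 had 566, 726 and 676 under H2O2, against 698, 760 and 666 in CK, and the groups overlapped. The fold was 0.923 (95% confidence interval 0.651 to 1.31, limma adjusted p = 0.874).

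BJ293768 had 21.0, 30.4 and 3.33 on the H2O2_embryo arrays, all at or near the floor, against 30.5, 13.0 and 12.8 in CK_embryo. The fold was 1.08 with a wide 95% confidence interval of 0.471 to 2.47 (limma adjusted p = 0.954), and its sign changed with the floor. In endosperm it had 269, 180 and 241 under H2O2, against 156, 172 and 24.1 in CK. The H2O2_endosperm arrays all lay above the CK_endosperm arrays, the nearest by 180 against 172. The fold was 2.62 (95% confidence interval 1.15 to 6.01), which did not pass the test (limma adjusted p = 0.200). With a floor and filter of 110 it was 1.58-fold and passed (limma adjusted p = 0.0273), whereas without CK_endosperm replicate 3 the log2 difference was 0.47. That floor made all CK_embryo and H2O2_embryo signals of BJ293768 equal and raised CK_endosperm replicate 3. It thereby shrank the shared spread, so nothing is read from this pass. The comparisons with H2O2 use the same CK arrays as those with ABA. For the background, 0.188% of all probe sets were called higher and 0.343% lower under H2O2 in embryo, and 3.08% higher and 2.38% lower in endosperm.

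The H2O2 effect was not shown to differ between the tissues for either probe set. The effect in embryo minus that in endosperm was 0.56 ± 0.34 on the log2 scale for BJ299578 (limma adjusted p = 0.442) and -1.28 ± 0.81 for BJ293768 (limma adjusted p = 0.463). Of all probe sets, 3.63% were called in this test.

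**Figure D2:**
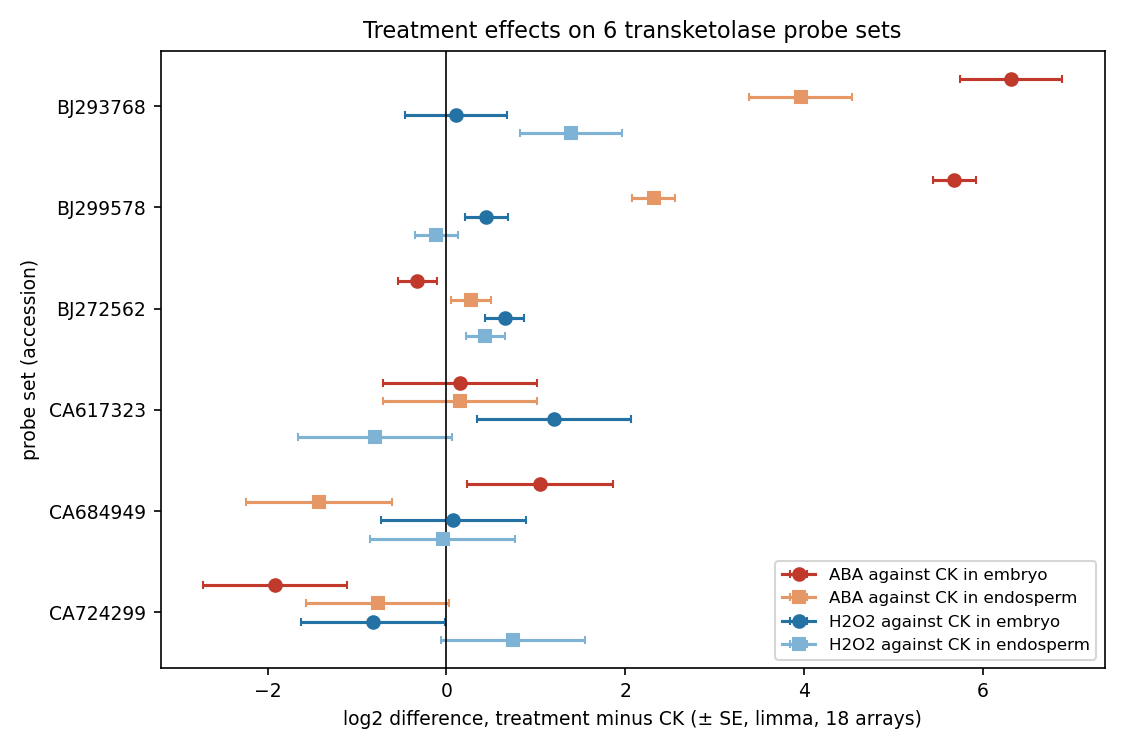
Log2 difference of treatment minus CK (± SE, limma on 18 arrays) for the 6 transketolase probe sets. Circles mark embryo, squares endosperm, red shades ABA and blue shades H2O2. BJ293768 and BJ299578, which were chosen on the ABA contrasts, have ABA differences from 2.32 to 6.31, and nothing is read from their place there. Their H2O2 differences lie between -0.12 and 1.39.

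The tissue difference outside ABA was large. On the H2O2 arrays, none of which chose the probe sets, BJ299578 was lower in embryo, at 118 ± 65.4, than in endosperm, at 656 ± 82.2 (SD, n = 3 each). This was 0.166-fold (limma adjusted p = 6.5e-08). BJ293768 averaged 18.2 ± 13.7 in H2O2_embryo and 230 ± 45.3 in H2O2_endosperm, 0.0818-fold (limma adjusted p = 6.7e-05). The embryo arrays lay below the endosperm arrays for both, without overlap.

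In water the same direction was found. BJ299578 in CK_embryo was 0.112-fold of CK_endosperm (limma adjusted p = 6.3e-09) without overlap. BJ293768 averaged 18.8 ± 10.2 in CK_embryo and 117 ± 81.2 in CK_endosperm, 0.199-fold (limma adjusted p = 0.00578), but the groups overlapped through CK_endosperm replicate 3. This call did not hold with a floor and filter of 110, nor in a fit of those 2 groups alone (limma adjusted p = 0.126 in each). The CK arrays also entered the ABA contrasts that chose the probe sets, so the difference in water is not independent of the choice. Its p-values are therefore only a description, and it is not taken as support for the difference under H2O2. Tissue differences were common, with 18.2% of all probe sets called in water and 22.7% under H2O2. Under ABA, as a description, embryo was 1.15-fold of endosperm for BJ299578 and 1.01-fold for BJ293768.

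BJ272562, a comparison transketolase with an AT3G60750 match, was measured between 4967 and 19007 on all 18 arrays. Under ABA it had 5510, 5639 and 4967 in embryo, against 6196, 7063 and 6937 in CK_embryo. All ABA_embryo arrays lay below all CK_embryo arrays, yet the 0.798-fold difference did not pass the test over all 18 arrays (limma adjusted p = 0.672). In endosperm it had 9122, 8064 and 8078 under ABA, against 6749, 7141 and 6971 in CK. Here all ABA arrays lay above the CK arrays, and the 1.21-fold difference also missed the threshold (limma adjusted p = 0.579).

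These results for BJ272562 turned on H2O2_embryo replicate 1, where its signal was 19007, against 7821 and 7912 on replicates 2 and 3. That array holds no ABA or CK sample and entered these comparisons only through the shared spread. Without it, the folds were the same, and BJ272562 was lower under ABA in embryo (limma adjusted p = 0.00349) and higher in endosperm (limma adjusted p = 0.0121). In that fit 7.01% of all probe sets were called lower in embryo and 6.93% higher in endosperm. The ABA effect in embryo minus that in endosperm was -0.60 ± 0.31 on the log2 scale with all arrays (limma adjusted p = 0.484) and -0.60 ± 0.11 without that array (limma adjusted p = 3.8e-04). Over all probe sets, 2.64% were called in this difference of effects with 18 arrays and 8.79% without that array. Fitted on the arrays of the comparison alone, the difference of effects and the embryo result passed (limma adjusted p = 0.00125 and 0.0449), whereas the endosperm result did not.

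Under ABA, BJ272562 averaged 5372 ± 357 in embryo and 8421 ± 607 in endosperm (SD, n = 3 each), without overlap. The 0.638-fold difference was not called with all arrays, where its limma adjusted p was 0.05 and just missed the threshold, and passed without H2O2_embryo replicate 1 (limma adjusted p = 2.8e-07). In this comparison 16.1% of all probe sets were called with all arrays and 23.7% without that array. In water the tissues overlapped, with 6732 ± 468 in embryo and 6954 ± 197 in endosperm (0.967-fold, 95% confidence interval 0.703 to 1.33, limma adjusted p = 0.931).

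Under H2O2, BJ272562 had 8628, 10019 and 9554 in endosperm, against 6749, 7141 and 6971 in CK_endosperm, with no overlap. The fold was 1.35 and missed the threshold with all arrays (limma adjusted p = 0.326), and passed without H2O2_embryo replicate 1 (limma adjusted p = 2.1e-04). Of all probe sets, 3.08% were called higher in this comparison with all arrays and 7.23% without that array. In embryo, all H2O2 arrays lay above the CK arrays, by 1.57-fold (limma adjusted p = 0.214). The fold was 1.17 without replicate 1 (limma adjusted p = 0.295).

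The remaining 3 transketolase probe sets gave low signals. CA617323 lay between 4.77 and 97.0 over the 18 arrays, CA684949 between 1.78 and 63.7, and CA724299 between 1.34 and 84.1. Each had arrays below the floor of 10 in at least 4 of the 6 groups. None passed the test in any of the 9 comparisons. The clearest split was that of CA724299 in embryo, with 1.43, 1.64 and 1.48 under ABA, against 41.3, 44.1 and 29.4 in CK. Here the ABA arrays were all below the floor, and the fitted log2 difference of -1.92 ± 0.81 did not pass (limma adjusted p = 0.257). It passed in a fit of those groups alone (limma adjusted p = 0.00723) and with a floor of 1 (limma adjusted p = 0.0209). In the fit of those groups alone the floor of 10 had made the ABA arrays equal, so that fit understates the spread. In all, 3.08% of all probe sets were called lower under ABA in embryo and 3.60% in endosperm.

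Of 42 other probe sets of the Calvin cycle, all of which passed the filter on low signals, none was called higher under ABA in embryo and 4 were called lower. Over all probe sets, 2.66% were called higher there and 3.08% lower. The log2 differences of the 42 ran from -1.54 to 1.07, with a median of 0.02, beside -0.05 over all probe sets tested. In endosperm 2 rose and 2 fell under ABA, beside 3.26% and 3.60% of all probe sets. The log2 differences of the 42 there ran from -1.79 to 2.11, the highest being that of CA632100, which was not called. The median was -0.16, beside -0.10 over all. Without H2O2_embryo replicate 1 the counts were 0 higher and 8 lower in embryo, and 6 higher and 4 lower in endosperm. The shares over all probe sets were larger in that fit too, at 4.79% higher and 7.01% lower in embryo and 6.93% higher and 8.39% lower in endosperm.

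The called probe sets with the largest folds under ABA were of aldolase, ribulose-phosphate 3-epimerase, triose-phosphate isomerase and a rubisco interacting protein. Aldolase builds the sugar phosphates from which substrates of transketolase are made, and BJ265323, an aldolase, averaged 156 ± 22.2 in ABA_embryo and 386 ± 35.5 in CK_embryo (SD, n = 3 each, 0.403-fold, limma adjusted p = 5.6e-04). A further aldolase, BE430528, fell in embryo (0.405-fold) and in endosperm (0.398-fold, limma adjusted p = 0.00698 and 0.00628), and these calls were lost without CK_embryo replicate 1 and without CK_endosperm replicate 2. Ribulose-phosphate 3-epimerase acts on the xylulose 5-phosphate that transketolase forms. BJ283086, the only one of its 3 probe sets called there, averaged 3643 ± 158 in ABA_endosperm and 2447 ± 72.8 in CK_endosperm (1.49-fold, limma adjusted p = 9.6e-04). Triose-phosphate isomerase, which interconverts the triose phosphates, was called in opposite directions for CA622382, with 0.673-fold in embryo and 1.42-fold in endosperm under ABA (limma adjusted p = 0.0197 and 0.0387). Both calls of CA622382 were lost when single arrays were left out. BQ161176, of the rubisco interacting group, fell in endosperm (0.334-fold, limma adjusted p = 0.0357), and this call was also lost when single arrays were left out.

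Under H2O2 none of the 42 probe sets was called in embryo, beside 0.188% higher and 0.343% lower over all probe sets. In endosperm 4 rose and 1 fell, and 3 of the 4 were triose-phosphate isomerase probe sets that may share a transcript. Over all probe sets 3.08% were higher and 2.38% lower in endosperm. The list median was -0.03 on the log2 scale. Without H2O2_embryo replicate 1 the counts were 7 higher and 1 lower, beside 7.23% and 6.36% of all probe sets. CA622382 averaged 1428 ± 59.6 in H2O2_endosperm and 834 ± 146 in CK_endosperm (SD, n = 3 each, 1.73-fold, limma adjusted p = 0.00210). The aldolase BJ265323 fell to 0.312-fold (limma adjusted p = 9.0e-05). Between the tissues in water, 9 of the 42 were higher in embryo and 1 lower, beside 6518 higher and 4034 lower of all 57992 probe sets. The median of the 42 was -0.18, on the side of endosperm.

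Rubisco, the carbon-fixing enzyme of the cycle, has 77 probe sets of its large and small subunits, of which 66 passed the filter. Many of these target near-identical copies and are not independent. Under ABA none was called higher, beside 2.66% of all probe sets in embryo and 3.26% in endosperm. Called lower were 3 in embryo and 9 in endosperm, beside 3.08% and 3.60% of all probe sets. The median log2 differences of the 66 were -0.29 in embryo and -0.58 in endosperm. Under H2O2, 1 was called higher in embryo, CK212552, beside 0.188% of all probe sets, and 5 fell in endosperm, beside 2.38%. CK212552 averaged 34215 ± 24964 in H2O2_embryo and 6191 ± 1491 in CK_embryo (SD, n = 3 each, 4.78-fold, limma adjusted p = 0.00504). Its fold was 3.24 without H2O2_embryo replicate 1 (limma adjusted p = 0.00111). The call was lost without the trend and in a fit of the compared groups alone. Without H2O2_embryo replicate 1, 8 fell under ABA in embryo, 11 under ABA in endosperm and 8 under H2O2 in endosperm, beside 7.01%, 8.39% and 6.36% of all probe sets in that fit.

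Of the 5 probe sets described as transketolase family protein in the pyruvate dehydrogenase group, a related thiamine diphosphate enzyme that feeds fatty acid synthesis, none was called higher under ABA. Both probe sets of CA720335 fell in ABA_embryo, to 0.536-fold and 0.605-fold (limma adjusted p = 0.00657 and 0.0342), and the second call was lost when any ABA_embryo or CK_embryo array was left out. Over all probe sets, 2.66% were called higher and 3.08% lower under ABA in embryo. No member of this group was called under ABA in endosperm, beside 3.26% higher and 3.6% lower over all probe sets. Under H2O2 in endosperm 1 was called higher, a probe set of CD875950 (1.77-fold, limma adjusted p = 0.0151), beside 3.08% of all probe sets. This call was lost without CK_endosperm replicate 2 or H2O2_endosperm replicate 2. Without H2O2_embryo replicate 1, 3 were called higher there, beside 7.23% of all probe sets.

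**Figure D3:**
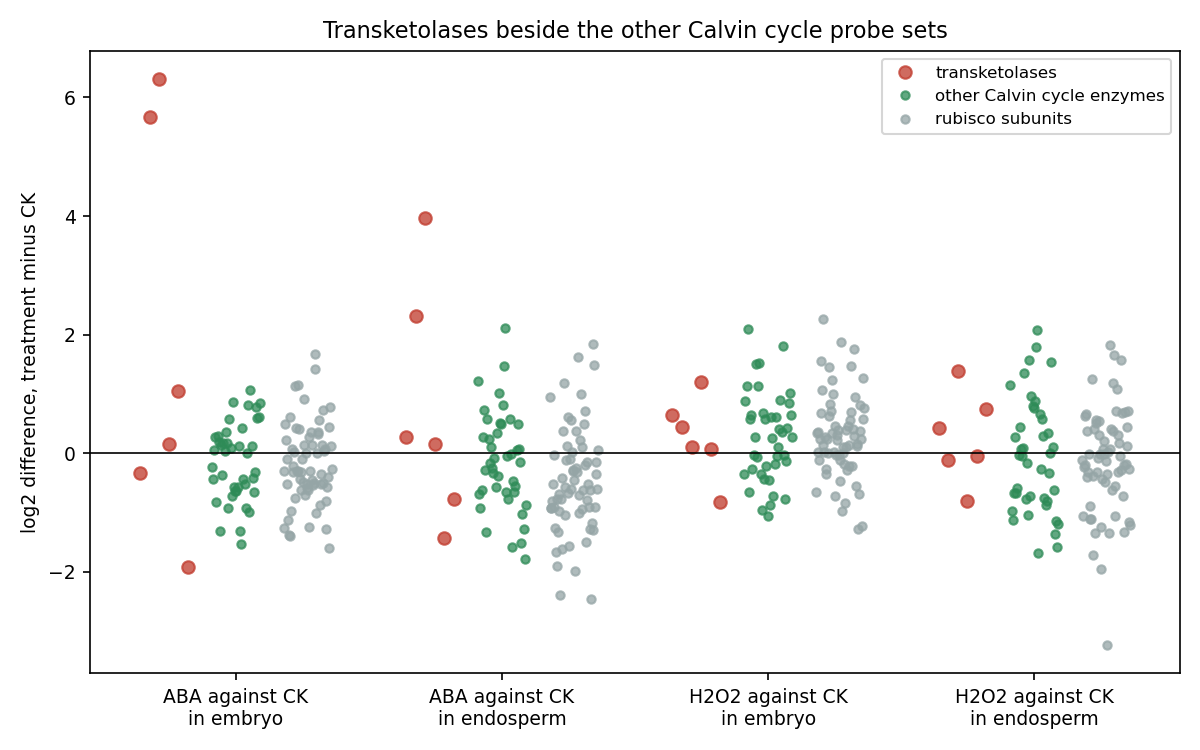
Log2 difference of treatment minus CK for each tested probe set of the transketolases (6, red), the other Calvin cycle enzymes (42, green) and the rubisco subunits (66, grey). Under ABA the red points at 6.31 and 5.68 in embryo and at 3.96 and 2.32 in endosperm lie above all green and grey points, whose highest values are 1.07 and 1.68 in embryo and 2.11 and 1.85 in endosperm. These red points are BJ293768 and BJ299578, which were chosen on these contrasts, so nothing is read from their place.

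BJ293768 and BJ299578 were compared with all other tested probe sets by Pearson's r of log2 signals over the 18 arrays. This r is a description, since the arrays share 6 groups and the large ABA difference dominates it. Their r with each other was 0.948, which placed BJ299578 29th among the probe sets most like BJ293768 and BJ293768 105th among those most like BJ299578. The named probe set most like either was the dehydrin CD920810, a protective protein of dry seeds and dehydrated tissue (r = 0.993 with BJ299578 and 0.959 with BJ293768). CD920810 averaged 12101 ± 202 in ABA_embryo and 264 ± 34.2 in CK_embryo, and 13766 ± 766 in ABA_endosperm and 2253 ± 150 in CK_endosperm (SD, n = 3 each).

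The next named probe sets for BJ299578 were the oleosin match CD920884 (r = 0.993), the 11-beta-hydroxysteroid dehydrogenase-like protein BJ297580 (r = 0.992), the oleosin match CD921530 (r = 0.991) and PMA1951 (CD913616, r = 0.986). Oleosins coat the oil bodies of seeds. For BJ293768 they were the cold regulated protein AB097412 (r = 0.947), the Rab protein BQ806472 (r = 0.945) and the multidomain cystatin AL829976 (r = 0.944), a protease inhibitor. In each of them the mean signal was highest in the ABA groups, and the CK and H2O2 means were higher in endosperm than in embryo. By the same measure BJ272562 had an r of -0.24 with BJ299578 and -0.26 with BJ293768. Most probe sets carry no name in the tables used here, and some names came from the study's own list of genes changed by ABA or H2O2. The named neighbours are thus partly preselected on these same arrays. For BJ293768, 3 unnamed probe sets stood above CD920810, and AB097412, BQ806472 and AL829976 stood at places 32, 38 and 44 among all. For BJ299578, 2 unnamed ones stood above CD920810, and CD913616 stood at place 17.

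**Figure D4:**
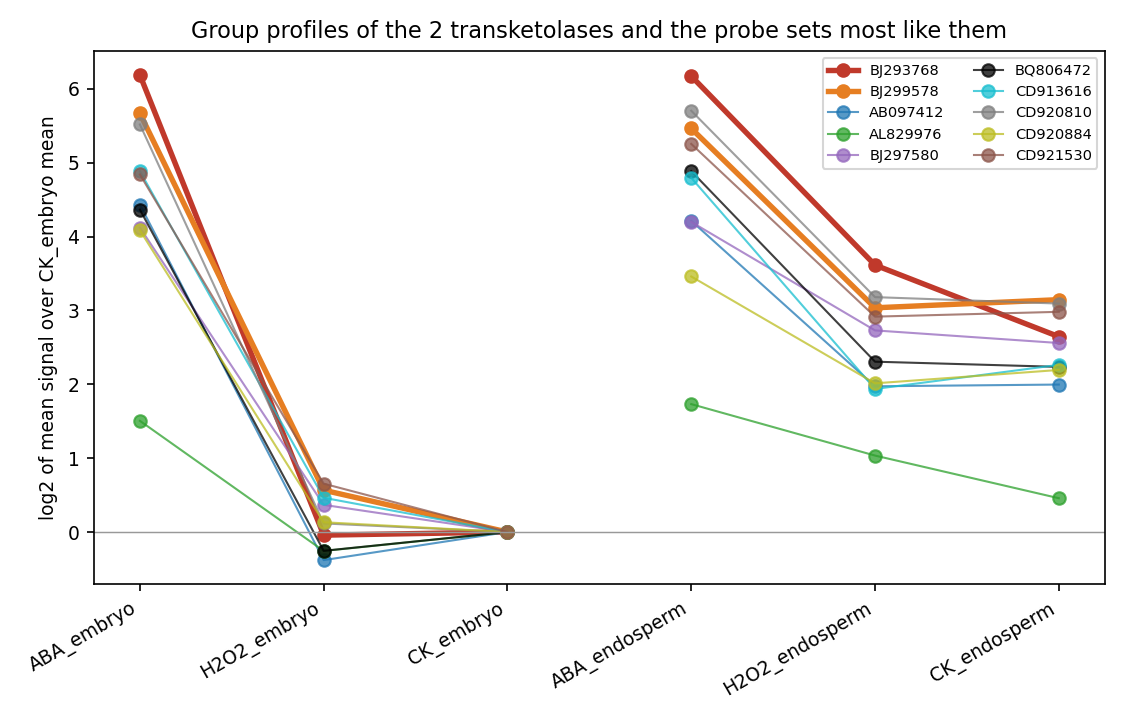
Group profiles of BJ293768, BJ299578 (thick lines) and the 8 other named probe sets most like them, as log2 of the group mean signal over the CK_embryo mean (n = 3 arrays a group). In every profile the ABA groups are highest within their tissue, and CK_endosperm lies above CK_embryo.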

How the data were processed

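Samples were grouped by their labels into 6 groups of 3 arrays. The deposited intensity values are linear signals, 1 column per array and without detection calls, which the authors computed in Microarray Suite 5.0 (MAS5). The Methods give a target signal of 100, and which scaling made the deposited table is not given in the sources used here. A floor of 10 was applied before the signals were put on the log2 scale. The 111 control probe sets were left out of 61290, and 57992 of the 61179 wheat probe sets reached 20 on at least 3 arrays. These included all 6 transketolases. They were fitted in limma 3.58.1 (R 4.3.3) on 6 group means with a trended eBayes, and p-values were adjusted by Benjamini-Hochberg over all probe sets, with a threshold of 0.05. The study's test, SAM, was not used. Folds are 2 to the power of the log2 difference. The fit was tested on simulated data. Annotation of the transketolases and the pathway lists came from the first 1418 rows of the study's annotation table, so transketolases under other functional groups were not analysed here. Names of other probe sets were also taken from the study's list of genes changed by ABA or H2O2 and from a RefSeq probe table. With these, 1617 wheat probe sets had a name or description. None of the 6 is in the RefSeq probe table, and no sequence is shown. Named were all 6 transketolases, called members of the pathway lists with the largest folds, and the 5 named probe sets most like each of the 2. The members and lists were chosen with earlier results of these data known. Alternatives were other floors, filters and normalizations, no trend, fewer groups in the fit, a block for the replicate number, and leaving out single arrays. The number of arrays limits the precision. Python 3.11.15 with pandas 2.3.3 was used for the rest.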

Additional observations from a re-analysis of the deposited data

How the results depend on the processing

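BJ293768 depended most on the treatment of low signals. Its log2 ABA difference in embryo was 5.41 with a floor of 32 and 3.63 with a floor and filter of 110, and the difference of its ABA effects between the tissues was 0.40 with the latter. Its H2O2 difference in embryo, 0.11, was -0.42 with a floor of 1, -0.31 after quantile normalization and -0.25 to 0.56 with single arrays left out, and was not called in any of these. With a floor and filter of 110 its H2O2 difference in endosperm was 0.66 (called), and its embryo minus endosperm difference in water was -0.38 (not called). That floor made its CK_embryo and H2O2_embryo arrays equal, so nothing is read from the H2O2 call. The embryo minus endosperm difference in water was -2.33 and not called in a fit of the 2 groups alone. With single arrays left out, the difference of its ABA effects ran from 1.85 to 3.27, the highest without CK_endosperm replicate 3. For BJ299578, the ABA difference was 5.21 in embryo with a floor and filter of 110 and 2.21 in endosperm after quantile normalization, and the difference of the ABA effects was 2.89 with that floor. That floor lies above every CK_embryo signal of BJ299578 (67.3 to 88.5) and raised them all to 110. The cause of the change after quantile normalization was not tested.

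For BJ272562, a fit of only the groups compared called the ABA difference in embryo (-0.33), the difference of the ABA effects (-0.60), embryo minus endosperm under ABA (-0.65) and the H2O2 difference in endosperm (0.43). Embryo minus endosperm under ABA was also called with a floor and filter of 110 (-0.65), a filter of 100 (-0.65) and 75th percentile scaling (-0.84). With single arrays left out, the ABA difference ran from -0.38 to -0.27 in embryo and from 0.22 to 0.30 in endosperm, the difference of effects from -0.66 to -0.54, and embryo minus endosperm under ABA from -0.68 to -0.59. All 4 were called without H2O2_embryo replicate 1, and the last also without H2O2_embryo replicate 2 or 3. The H2O2 difference in embryo was called without H2O2_embryo replicate 3 (0.86). That fit keeps replicate 1, the array that stood apart, and without replicate 1 the difference was 0.23 and not called. Uncalled small differences of BJ272562 changed sign. Embryo minus endosperm in water was 0.053 after quantile normalization and -0.085 to 0.0098 with single arrays left out, and that under H2O2 was -0.0072 after 75th percentile scaling and -0.25 to 0.39 with single arrays left out (-0.25 without H2O2_embryo replicate 1, called). The difference of the H2O2 effects ran from -0.21 to 0.44.

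Same-numbered arrays did not deviate together (median correlation -0.003 over 45 pairs), so the numbers were not taken as pairs. With the replicate block, BJ299578 had an embryo minus endosperm difference of -2.59 under H2O2 and BJ293768 one of -3.61 (limma adjusted p = 2.5e-07 and 2.5e-05), and no call of the transketolases changed. Low signals of CA617323, CA684949, CA724299 and, in embryo without ABA, BJ293768 limit what can be said of them.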
